A study of Mus musculus with 6 samples.

Results

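The male gonad of the mouse at E13.5, a stage counted in days of embryonic life, was set against the whole male embryo, to describe which transcripts the fetal testis held in excess and which it lacked. The comparison used 4 of the 6 Affymetrix mouse arrays of the study, all those from E13.5. 2 arrays carried RNA of E13.5 testes, dissected as genital ridges, each from a pool of 20 testis pairs, one of strain 129/Sv and one of strain 129.MOLF-Chr19, a 129/Sv line whose chromosome 19 comes from the MOLF strain. 2 arrays carried RNA of whole male E13.5 embryos of the same strains, each from a pool of 3 embryos. The labels give E13.5 for these embryos, while the design text gives E13.5 in one place and E13 in another, and an age gap between the tissues cannot be told apart from the tissue itself. The labels name no transgene or treatment for any group, and the sources used here do not say whether the gonads were left in the embryos. The study collected the embryos to ask whether strain differences in the testis were particular to the gonad, and chose the strains because 129.MOLF-Chr19 males develop testicular germ cell tumors. The other 2 arrays, of testes at postnatal day 1 (PN1) from pools of 12 and 25 pairs, entered the estimate of spread and the choice of genes tested. Of the genes tested, 391 lay above the array median on fewer than 2 of the 4 E13.5 arrays and entered through PN1, and 6 of these were called higher and 0 lower by at least 2-fold.

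At this age the testis has formed cords in which Sertoli cells, the supporting cells, enclose the germ cells. Between the cords lie steroid-producing fetal Leydig cells, interstitial progenitors and a growing vasculature. Male germ cells then leave the cell cycle and do not enter meiosis, as those of the ovary do, and the Sertoli cell hormone AMH makes the female duct regress. In bulk tissue, fewer cells of a type and less RNA per cell cannot be told apart.

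Each strain and tissue had 1 array of pooled RNA, with no replicate, so the p-values measure only the spread between these arrays. That spread is how far the tissue differences vary between the strains. It left 2 residual degrees of freedom per gene, to which limma added a prior worth 5.66 that is shared across genes. Values are deposited intensities on a linear scale, whose summarisation method is not given in the sources used here. They were raised to each array's 25th percentile (107.4 to 125.4 over the 6 arrays), log2 transformed and centred on the array median (220.5 to 250.7). Over all tested genes Pearson's r of these log2 values was 0.985 between the testis arrays, 0.981 between the embryo arrays and 0.919 to 0.945 between a testis and an embryo array, across genes that are not independent. The 129/Sv embryo array stood out in the 18S ribosomal control, at 3053, where the remaining 5 arrays lay between 571 and 787. The PN1 array of 129.MOLF-Chr19 had an Actb signal of 3586, against 15386 to 17742 on the others, and a 3′ to 5′ Actb ratio of 1.84, against 1.09 to 1.19. The part of these arrays in the results below is given as counts without them.

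Of 13027 genes tested with limma (strain as a block, Benjamini-Hochberg adjusted p under 0.05), 463 were higher in the testis by at least 2-fold, which is 3.55% of the genes tested, and 206 were lower by at least 2-fold, which is 1.58%. The words rose and fell refer below to genes past the adjusted p, and counts of list members are at 2-fold or more unless stated otherwise. 59 genes rose at least 4-fold and 56 fell at least 4-fold, and 19 rose and 24 fell at least 8-fold. Each of the 463 and each of the 206 genes differed with one sign in both strains, with no overlap between the testis and embryo arrays, and 346 of the first and 174 of the second passed 2-fold in both strains. Over all tested genes both testis arrays lay above both embryo arrays in 34.1% and below them in 22.3%. The 463 and 206 genes were chosen by this same difference, so their separation and shared sign add nothing to the calls. The median difference of all tested genes, testis minus embryo, was 0.03 on the log2 scale (quartiles -0.16 and 0.32).

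The split between higher and lower genes depended on the scaling. Of the 2-fold calls 69.2% were higher in the testis with centring on the array median, 61.0% with the values as deposited (371 higher, 237 lower) and 58.3% after quantile normalization (325 higher, 232 lower). At an adjusted p under 0.05 with no limit on the fold, 2237 genes were higher (17.2%) and 696 lower (5.34%), a share of 76.3% higher, against 64.5% with the values as deposited and 55.9% after quantile normalization. Those counts also rested on every E13.5 array. They fell to 707 higher and 263 lower without the 129/Sv testis array, to 512 and 238 without the 129.MOLF-Chr19 testis array, to 1205 and 383 without the 129/Sv embryo array and to 1345 and 507 without the 129.MOLF-Chr19 embryo array. The 2-fold counts moved less, between 394 and 539 higher and between 201 and 239 lower when an E13.5 array was left out, and were 467 and 206 without either PN1 array.

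**Figure D1:**
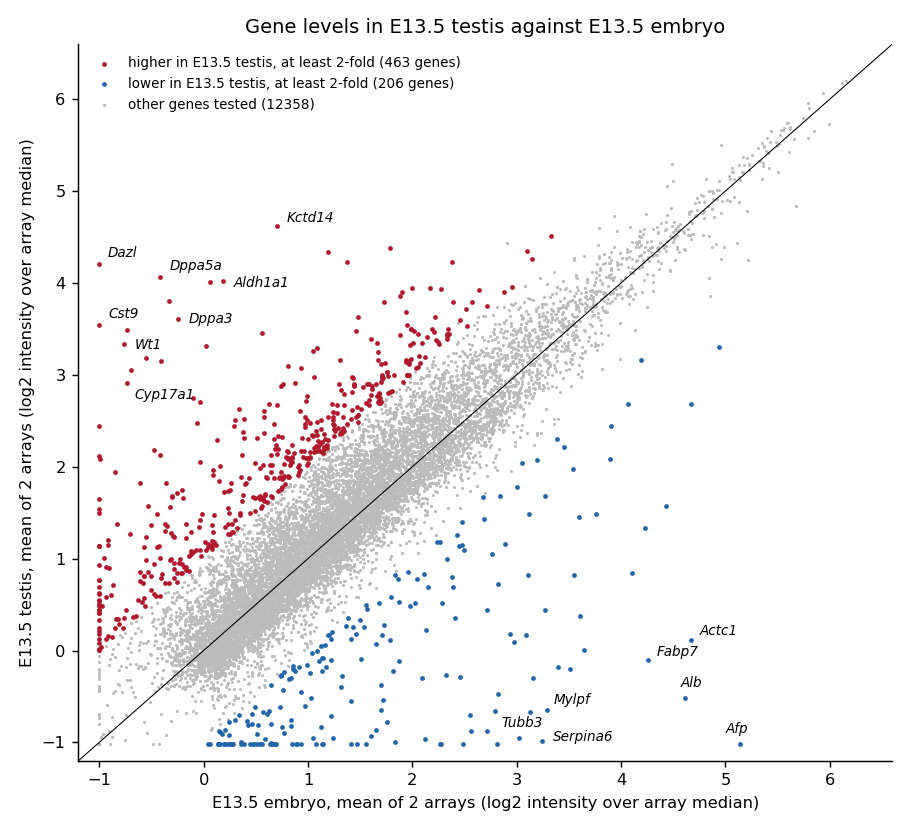
Each point is 1 of the 13027 genes tested, with its mean over the 2 E13.5 testis arrays on the vertical axis and over the 2 E13.5 embryo arrays on the horizontal axis, both as log2 intensity over the array median. The line marks equal values. The row of points near -1 on either axis holds genes at the floor on both arrays of that tissue, such as Dazl in the embryo and Afp in the testis.

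**Figure D2:**
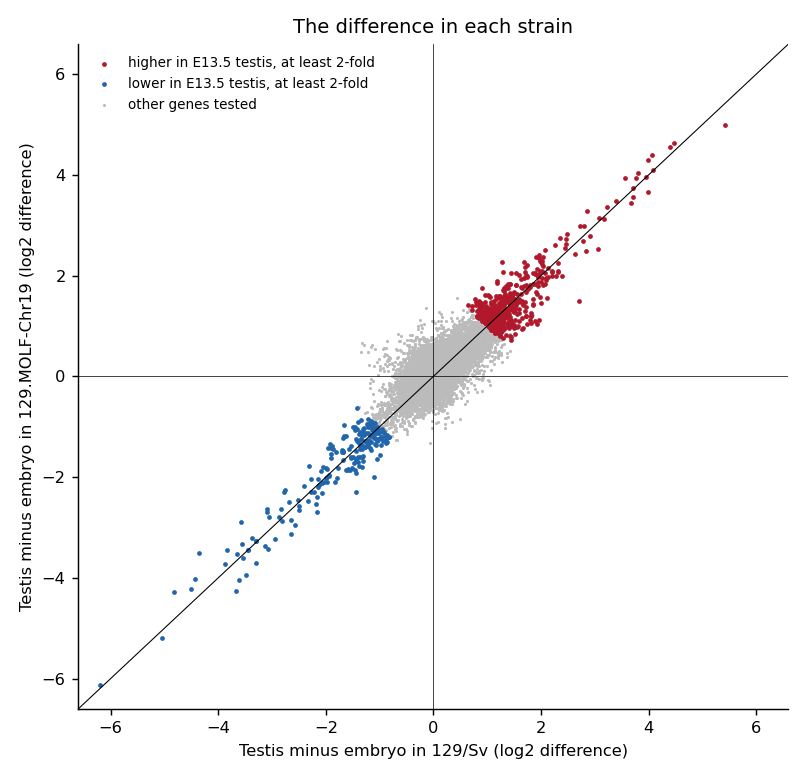
Each point is a tested gene, with its testis minus embryo log2 difference in 129/Sv on the horizontal axis and in 129.MOLF-Chr19 on the vertical axis. All 463 red and 206 blue points lie where both strains have the same sign. The colours come from the call over both strains, so this is no separate test.

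In the pairs of intensities that follow, the 129/Sv array is given before the 129.MOLF-Chr19 array. Numbers after rose by and fell by, and signed numbers in parentheses, are differences of testis minus embryo on the log2 scale. The largest rise was that of Dazl, an RNA-binding protein of germ cells, with an intensity of 5114 and 3505 in the testis pools, against 109 and 97.1 in the embryo pools. Both embryo values lay at the floor, so the testis was at least 37.0-fold higher at this probe set (limma adjusted p = 1.5e-04). The other probe set of Dazl differed by 3.63. The next largest rises were those of Cst9 (log2 difference 4.55), a cystatin of Sertoli cells, Dppa5a (4.48), an RNA-binding protein of pluripotent and germ cells, Akr1cl (4.22), an aldo-keto reductase, Aard (4.14), and Wt1 (4.09), a zinc finger factor that gonad formation requires. Tcf21 (3.95), a factor of the gonadal mesenchyme, Kctd14 (3.92), Dppa3 (3.85), a maternal and germ cell factor, and Aldh1a1 (3.83), which makes retinoic acid, completed the first 10. For Kctd14 the gene's 3 other probe sets differed by 0.41, 1.33 and 4.34, so its size rests on the probe set. Cst9, like Dazl, lay at the floor in both embryo pools, and Afp and Zic1 lay there in both testis pools. At these probe sets their differences are lower bounds in size. The largest falls were in genes of the liver, the muscles and the nervous system. They were Afp (-6.16) and Alb (-5.12), the plasma proteins of the fetal liver, Actc1 (-4.55), cardiac actin, Fabp7 (-4.36), the fatty acid binding protein of radial glia, Serpina6 (-4.22), the corticosteroid binding globulin, Tubb3 (-3.97), a neuronal tubulin, Mylpf (-3.93), a fast muscle myosin light chain, Zic1 (-3.83), a factor of the neural tube and somites, Ncan (-3.80), a brain proteoglycan, and Rtn1 (-3.71), a neuronal reticulon.

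Germ cell genes were among the highest rises. Of 26 tested members of the germ cell identity list, 13 rose by at least 2-fold and 0 fell, with a median difference of 0.98 against 0.03 over all tested genes. Dppa3 had 2864 and 2719.6 in the testis pools, against 221 and 189.7 in the embryo pools (log2 difference 3.85, SE 0.12, limma adjusted p = 3.6e-06). Ifitm1, an interferon-induced membrane protein of primordial germ cells, had 2655 and 2379.9 in the testis and 398 and 322 in the embryo pools. Ddx4, the germ cell RNA helicase, had 395 and 386 in the testis pools and lay at the floor in both embryo pools with 18.1 and 22.1, a difference of at least 3.41-fold (adjusted p = 7.6e-05). The testis and embryo arrays did not overlap for any of these genes, as for all 463 genes higher by at least 2-fold, which adds nothing to their calls. Stk31, a kinase of male germ cells, was at least 3.23-fold higher. It had 432 and 317 in the testis pools and 36.8 and 40.3, at the floor, in the embryo pools. Its other probe set differed by 1.27. Rbm46, an RNA-binding protein chosen after its values were seen, had 349.6 and 338 in the testis and 111 and 129 in the embryo pools, a call lost without the 129.MOLF-Chr19 testis or the 129/Sv embryo array.

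Other genes of fetal male germ cells differed little or were not called. Kit, the receptor that primordial germ cells need to survive and one chosen after its values were seen, had 461 and 487 in the testis pools, against 357 and 378 in the embryo pools, a log2 difference of 0.45 (adjusted p = 0.0261). That call was lost without any 1 of the 4 E13.5 arrays. Dnd1, which protects germ cell transcripts and whose loss in 129 males gives testicular tumors, rose by 0.62, with 615 and 537 in the testis pools and 439.5 and 355 in the embryo pools (adjusted p = 0.0154). That call was lost without either testis array or the 129.MOLF-Chr19 embryo array. Tfap2c and Prdm14, factors of germ cell specification, had differences of -0.05 and -0.11 and were not called. These 2 genes were also chosen after their values were seen. Tex15 (0.48, adjusted p = 0.151), Tex13b (0.44) and Nr6a1 (-0.27) did not pass either.

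Pluripotency genes that germ cells share with embryonic stem cells were split. 7 of 20 tested members rose by at least 2-fold, and the list's median was 0.55. Dppa5a had 3763 and 3907 in the testis pools, against 187 and 178 in the embryo pools. Pou5f1 (Oct4), the factor that keeps germ cells alive, had 665 and 784 in the testis pools and lay at the floor in both embryo pools with 59.1 and 76.9, at least 6.30-fold apart (adjusted p = 6.7e-04). Dppa4, a partner of Dppa2 in chromatin, was at least 5.81-fold higher, L1td1, an RNA-binding protein of transposon origin, at least 3.42-fold, and Zfp42 (Rex1) at least 3.09-fold. Nanog had 177 and 205 in the testis pools and lay at the floor in the embryo pools with 39.2 and 40.1, yet it lay below the array median and was not tested. Sox2, which mouse germ cells and the neural tube both express, was lower in the testis with 559 and 652, against 795 and 964 in the embryo pools, a log2 difference of -0.45 (adjusted p = 0.0257), a call that any 1 of the 4 E13.5 arrays ended when left out. Trim71, a stem cell ubiquitin ligase, had a difference of 0.57 and was not called, while its other probe set differed by 1.86.

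Genes of the piRNA pathway, which silences transposons in germ cells, followed in part. 3 of 16 tested members rose by at least 2-fold, namely Tex19.1 (at least 5.64-fold, adjusted p = 2.5e-05), Ddx4 and Mael, and the list's median was 0.32. Tex19.1, which restrains retrotransposons, had 649 and 643 in the testis pools, against 110.2 and 99.2 in the embryo pools. Mael, the mouse maelstrom gene, had 344 and 283 in the testis and 28.6 and 32.3, at the floor, in the embryo pools, at least 2.72-fold apart. At 1626 and 1586 its PN1 intensities lay above both, and PN1 was not compared here. Tdrd5 (0.81) rose by less than 2-fold and Gpat2, at the floor in both embryo pools, by at least 1.65-fold and tested only through its PN1 signal, and each lost its call without the 129/Sv testis array, Gpat2 also without the 129.MOLF-Chr19 testis array. Asz1 (0.26), Tdrd7 (0.38) and Mov10l1 (0.18) were not called.

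**Figure D3:**
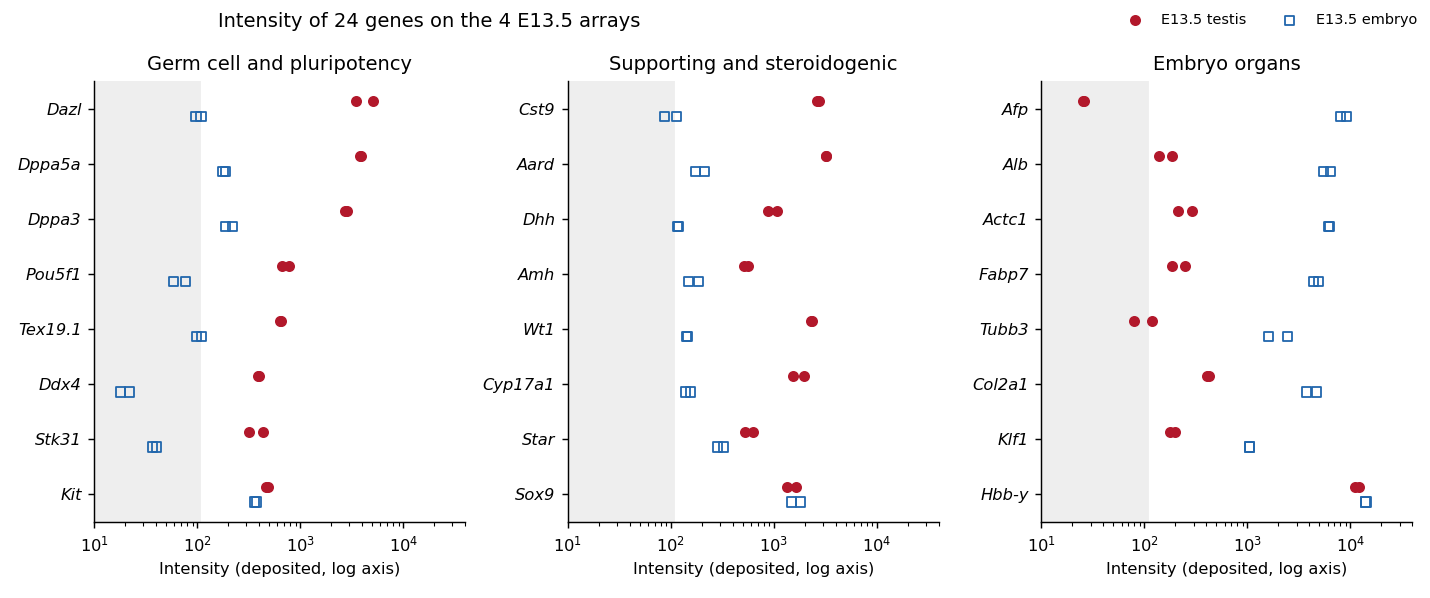
Deposited intensity of 24 genes on the 4 E13.5 arrays, on log axes. Filled circles are the 2 testis arrays and open squares the 2 embryo arrays, and the grey band marks intensities below 107.4, the lowest floor of the 6 arrays. Circles and squares lie apart for all genes drawn except Sox9, whose values overlap.

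The germ cell genes above were read for one short sequence element in their promoters. Of 29 members of the germ cell, pluripotency and piRNA lists called higher, 21 had a promoter in the RefSeq table (assembly GRCm38.p6), taken as the 250 bases before the annotated start. The palindrome CACGTG, an E-box that reads the same on both strands, occurred in 5 of these 21 promoters (23.8%), against 8.23% of the 10454 promoters of tested genes and 6.05% of all 27025 promoters. Among genes higher by at least 2-fold it occurred in 7.39%, and among those lower by at least 2-fold in 2.42%. The 5 genes were Ddx4, Mael, Rbm46, Slc25a31, the ADP and ATP carrier of germ cells, and Stk31. Their promoters are printed because they are the germ cell members that carry the element, and the motif was chosen with the members known. The sequence of Ddx4 is chr13:112652311-112652560 on the minus strand, that of Mael chr1:166238745-166238994 (minus), Rbm46 chr3:82876484-82876733 (minus), Slc25a31 chr3:40708621-40708870 (plus) and Stk31 chr6:49395289-49395538 (plus). Each is written 5′ to 3′ along the gene, ends at the base before the start, and has the element in capitals.
Ddx4: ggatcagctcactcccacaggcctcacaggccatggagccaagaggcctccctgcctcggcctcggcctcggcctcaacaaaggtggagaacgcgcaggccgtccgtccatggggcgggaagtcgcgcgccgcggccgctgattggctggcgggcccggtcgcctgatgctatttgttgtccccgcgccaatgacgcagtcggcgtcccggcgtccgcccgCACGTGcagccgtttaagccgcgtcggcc
Mael: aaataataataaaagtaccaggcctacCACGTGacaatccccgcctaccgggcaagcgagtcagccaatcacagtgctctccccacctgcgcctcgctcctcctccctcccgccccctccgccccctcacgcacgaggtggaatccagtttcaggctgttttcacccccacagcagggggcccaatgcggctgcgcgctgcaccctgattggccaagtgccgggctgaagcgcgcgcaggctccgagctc
Rbm46: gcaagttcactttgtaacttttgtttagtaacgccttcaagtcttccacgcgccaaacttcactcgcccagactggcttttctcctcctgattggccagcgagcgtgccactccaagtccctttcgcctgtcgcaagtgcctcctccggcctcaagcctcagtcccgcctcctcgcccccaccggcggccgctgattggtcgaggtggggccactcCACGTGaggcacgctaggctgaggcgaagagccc
Slc25a31: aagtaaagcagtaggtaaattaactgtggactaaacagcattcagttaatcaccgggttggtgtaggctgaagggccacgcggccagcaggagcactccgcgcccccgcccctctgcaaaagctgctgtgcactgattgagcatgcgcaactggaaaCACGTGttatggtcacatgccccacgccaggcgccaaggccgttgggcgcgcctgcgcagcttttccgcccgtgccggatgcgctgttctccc
Stk31: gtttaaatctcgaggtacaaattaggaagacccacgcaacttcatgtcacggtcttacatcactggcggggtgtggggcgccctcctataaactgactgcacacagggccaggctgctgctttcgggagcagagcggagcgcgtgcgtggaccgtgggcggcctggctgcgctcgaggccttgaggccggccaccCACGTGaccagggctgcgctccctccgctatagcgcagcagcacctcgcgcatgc
Counted back from the annotated start, the first base of the element lay at position -29 in Ddx4, -34 in Rbm46, -55 in Stk31, -93 in Slc25a31 and -223 in Mael. Slc25a31 itself had 322 and 288 in the testis pools and 59.6 and 55.9, at the floor, in the embryo pools, at least 2.66-fold apart. Of 3 further motifs searched on both strands, TCCCGC occurred in 28.6% of the 21 promoters, against 29.0% of those of tested genes, and AAGGTCA and AGATAA in none of the 21, against 2.74% and 6.04%. In the 10 promoters found for Sertoli and steroid list members called higher, CACGTG and AAGGTCA were not found. A match is a description of the letters in this window and says nothing of binding.

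Meiosis genes were mostly too dim to test. Of the 25 measured members 11 were tested, and 0 of those passed 2-fold in either direction. Syce2, a protein of the synaptonemal complex, rose by 0.89 on the log2 scale, with 726 and 803 in the testis pools and 431 and 442 in the embryo pools (adjusted p = 0.00184), a call that was lost without the 129.MOLF-Chr19 testis array. Stra8, which retinoic acid induces when germ cells enter meiosis, had 305 and 255 in the testis pools, against 576 and 334 in the embryo pools. Its difference of -0.57 passed narrowly (adjusted p = 0.0475), and the call was lost without either testis array or the 129/Sv embryo array. Sycp3, another synaptonemal complex gene, had 173 and 117 in the testis and 20.6 and 26.6, at the floor, in the embryo pools, was tested through its PN1 signal and was not called (difference 0.31, adjusted p = 0.214).

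Of the retinoic acid enzymes, the synthesising Aldh1a1 and Aldh1a2 and the degrading Cyp26b1 rose by at least 2-fold, while Aldh1a3 (-0.12) and Cyp26a1 (-0.14) of the same classes, chosen after their values were seen, were not called. Cyp26b1, which degrades retinoic acid in the fetal testis, had 1288 and 1189.7 in the testis pools, against 411 and 555 in the embryo pools (log2 difference 1.46, SE 0.15, limma adjusted p = 6.1e-04). The synthesising enzymes Aldh1a1 and Aldh1a2 rose by 3.83 and 1.45, with 3919 and 3525 and then 1809.6 and 1602 in the testis pools, against 258 and 297 and then 660.0 and 661 in the embryo pools. Of the 19 tested genes of the pathway these 3 rose by at least 2-fold and 3 fell by at least 2-fold. The 3 that fell were binding proteins. Rbp4, the plasma retinol carrier of liver, fell by 3.59, and the cellular retinoic acid binding proteins Crabp1 and Crabp2 fell by 1.66 and 1.50. Crabp1 had 217 and 286 in the testis pools, against 802 and 873 in the embryo pools. Rara (0.33) and Rarb (0.32), nuclear receptors for retinoic acid, were not called.

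Sertoli cell genes rose in both strains. Of 24 tested members 12 rose by at least 2-fold and 0 fell, and the median was 0.80. The summed intensity of the 24 tested members was 22468 and 22306 in the testis pools, against 9129 and 8142 in the embryo pools. Cst9 had 2638 and 2716 in the testis pools and lay at the floor in the embryo pools with 113 and 86.6, at least 23.4-fold apart (adjusted p = 2.1e-06). Aard, an alanine- and arginine-rich protein of Sertoli cells, had 3234 and 3195 in the testis and 213 and 175 in the embryo pools. Defb19, a defensin of the testis, had 2302 and 1879.8 in the testis and 183 and 150.4 in the embryo pools. No testis value of these genes came near an embryo value. Amh, the hormone that removes the Müllerian duct, rose by 1.79 (SE 0.20, adjusted p = 8.3e-04), with 518 and 567 in the testis pools, against 186 and 147 in the embryo pools. Ptgds, which makes the prostaglandin that recruits Sertoli cells, rose by 1.61, with 1714 and 1719 in the testis and 690.1 and 518 in the embryo pools. Dmrt1, a male factor of Sertoli and germ cells, had 331 and 334 in the testis pools and lay at the floor in the embryo pools with 92.7 and 102, at least 2.90-fold apart.

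The factors that start the Sertoli program were not called. Sry, the male determinant of the Y chromosome, which acts before E13.5, had 339 and 277 in the testis pools and 359 and 338 in the embryo pools (difference -0.11, adjusted p = 0.769). Sox9, its target in Sertoli cells and also a factor of cartilage, had 1625 and 1341 in the testis pools and 1821 and 1479 in the embryo pools, and the arrays overlapped (difference -0.07, adjusted p = 0.746). Its other probe set differed by -0.44. Fgf9, the growth factor that maintains Sox9, was not called at the probe set of highest mean (0.31, adjusted p = 0.122), but its other probe set differed by 1.48, and with the mean of its probe sets the gene was called at 0.90 (adjusted p = 0.00164). Col9a3 (0.47), Mmd2 (0.40) and Nr0b1 (0.40) had positive differences that did not pass, and the other probe set of Col9a3 differed by 1.30.

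Among the genes that specify the gonad, 4 of 16 tested members rose by at least 2-fold and 1 fell. Wt1 had 2293 and 2340.3 in the testis pools, against 141 and 146 in the embryo pools (log2 difference 4.09, SE 0.13). Gata4, which gonadal somatic cells need from the start, had 989 and 1275 in the testis and 265 and 268 in the embryo pools (difference 2.16). Emx2, a homeobox factor of the gonadal and kidney epithelium, had 826 and 794 in the testis and 276 and 308 in the embryo pools. Nr5a1, the nuclear receptor that drives Sertoli and steroidogenic genes, rose by less than 2-fold (0.84, adjusted p = 0.00348), with 1236 and 1187 in the testis pools and 797 and 641 in the embryo pools, and the call was lost without the 129.MOLF-Chr19 testis array. Lhx9, a homeobox factor of the early gonad that limbs and brain also use, was not called (0.07, adjusted p = 0.738). Its other probe sets differed by 1.20 and 0.27, and with their mean the gene was called at 0.55 (adjusted p = 0.00952). Its relative Lhx2, a factor of forebrain, eye and limb, was the member that fell, with 38.5 and 55.7, at the floor, in the testis pools, against 565 and 743 in the embryo pools, at least 5.39-fold lower. Six4 (0.39) and Cited2 (0.23) were not called.

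Genes of the steroid pathway, from cholesterol uptake to androgen precursors, rose. Of 13 tested Leydig and steroid genes 7 rose by at least 2-fold, 0 fell by that much, and the median was 1.01. Scarb1, the receptor that takes up cholesterol from lipoproteins, rose by 1.39, with 1125 and 1046 in the testis pools, against 419 and 459 in the embryo pools. It was chosen after its values were seen, to complete the 7. Star, which carries cholesterol into mitochondria, rose by 1.01 (SE 0.12, adjusted p = 9.4e-04), with 632 and 528 in the testis and 327 and 283 in the embryo pools, and its 2 other probe sets differed by 2.06 and 2.31. Cyp11a1, the enzyme that makes pregnenolone, had 991 and 787 in the testis and 113 and 145 in the embryo pools, 1 of them at the floor. Hsd3b1, the next enzyme, had 1652 and 1365 in the testis and 251 and 225 in the embryo pools. Cyp17a1, which opens the way to androgens, had the largest rise of the list at 3.64, with 1954 and 1535 in the testis pools, against 156 and 138 in the embryo pools (adjusted p = 7.8e-06). Fdx1, the electron donor of the mitochondrial enzymes, rose by 2.20. Hsd11b2, which inactivates glucocorticoids, had 2210.1 and 2369 in the testis and 247 and 246 in the embryo pools. For each of these 7 the lower testis array lay above the higher embryo array. This held for all 463 genes higher by at least 2-fold and adds nothing to their calls. Over all tested genes it held in 34.1%.

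Insl3, the Leydig cell hormone of testis descent, was not analysed here. Adrenal genes were set beside these genes, since adrenal tissue uses the same pathway. Cyp21a1, which makes adrenal corticoids, had 415 and 358 in the testis pools and 384 and 376 in the embryo pools and was not called (0.10, adjusted p = 0.568). Mc2r, the adrenal receptor for corticotropin, which was chosen after its values were seen, had 291 and 243 in the testis pools and 209 and 182 in the embryo pools (0.53, adjusted p = 0.0195). That call was lost without any 1 of the 4 E13.5 arrays. The part of adrenal tissue in these values was not tested. Cyb5a (0.03), a cytochrome that aids Cyp17a1, and Tspo (-0.05), a mitochondrial cholesterol-binding protein, were not called. Vcam1 (-0.46), an adhesion protein, and Gramd1b (-0.77), a sterol transfer protein, fell by less than 2-fold. The call of Vcam1 was lost without any 1 of the 4 E13.5 arrays and that of Gramd1b without the 129.MOLF-Chr19 testis array, and the other probe set of Gramd1b was higher in the testis by 0.96.

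Enzymes of cholesterol synthesis itself did not follow. 1 of 19 tested members rose by at least 2-fold, against 3.55% over all tested genes, and 0 fell. Their median difference was -0.05. The member past 2-fold was Insig1, a sterol sensor that restrains synthesis and not an enzyme of it. It had 1223 and 940.3 in the testis pools, against 574 and 457 in the embryo pools (1.15, adjusted p = 0.00101), and fell short of 2-fold after quantile normalization. Msmo1, an enzyme of the pathway, rose by 0.51 (limma adjusted p = 0.0263). With the values as deposited 1 member of the list was called higher, in place of these 2. Dhcr7 (0.37), the last step to cholesterol, and Fdps (0.29), an earlier one, were not called.

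Of 19 tested interstitial genes 6 rose by at least 2-fold and 0 fell by that much, with a median of 0.05. The 6 became 3 without the 129/Sv embryo array or when probe sets were averaged per gene, and 4 without the 129/Sv testis array. Tcf21 had 3752 and 3661 in the testis pools, against 255 and 252 in the embryo pools, and its other probe set differed by 0.54. Wnt5a, a Wnt ligand of mesenchyme, had 1577 and 1439 in the testis and 415 and 558 in the embryo pools (1.73, adjusted p = 9.9e-04). Maf, a factor of interstitial cells and macrophages, rose by 1.54, with 1967 and 1639 in the testis and 583 and 735 in the embryo pools, a call lost without either testis array or the 129/Sv embryo array, and its 4 other probe sets differed by -0.08 to 0.77. Nr2f2 (COUP-TFII), the marker of Leydig progenitors, had 5437 and 4534 in the testis pools, against 1589.6 and 2097 in the embryo pools, a difference of 1.53 that was not called (adjusted p = 0.110). Its PN1 values were 3325 and 557.5, the lower on the 129.MOLF-Chr19 array, and without the PN1 arrays its limma adjusted p was 4.1e-07. That fit has fewer residual degrees of freedom, so the p owes less to the gene's own spread and more to the prior shared across genes. The difference was 1.84 in 129/Sv and 1.21 in 129.MOLF-Chr19. Dcn, a matrix proteoglycan, rose by 1.18, with 6177 and 4407 in the testis and 2455 and 2423 in the embryo pools. Its other probe set differed by 0.12. Of 5 tested contractile genes Acta2, Myh11 and Des fell by less than 2-fold, and Cnn1 (-0.30) and Tagln (-0.22), chosen after their values were seen, were not called. Acta2, smooth muscle actin, had 2555 and 1924 in the testis pools, against 3841 and 2882 in the embryo pools (-0.50). Myh11 and Des fell by 0.46 and 0.52, and Nes, an intermediate filament of progenitors, by 0.62. Their other probe sets differed by -0.02 for Myh11, -0.32 for Des and -0.08 for Nes. None of these 4 calls held without every E13.5 array, except that Nes held without the 129/Sv embryo array.

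In the hedgehog pathway the ligand of Sertoli cells and a receptor for it rose. Dhh had 870.3 and 1082 in the testis pools, against 116 and 119 in the embryo pools (3.07, SE 0.15, adjusted p = 1.7e-05), and its other probe set differed by 1.15. Shh, the ligand of neural tube, gut and limb, had 508 and 494 in the testis and 634 and 548 in the embryo pools and was not called (-0.15). Ptch1, the receptor and target gene, had 2723 and 2388 in the testis and 818 and 1181 in the embryo pools (1.46, adjusted p = 0.00124), and its other probe sets differed by 0.36 and 0.46. Gli1, the other target gene, rose by 0.69 and lost its call without either testis array. Hhip, a target that binds the ligand, had 1016 and 927 in the testis and 562 and 529 in the embryo pools and was not called (0.91, adjusted p = 0.103). Its PN1 values were 1163 and 390.2, and without the PN1 arrays its limma adjusted p was 6.5e-05, with the same limit as for Nr2f2. 2 of 13 tested members, Dhh and Ptch1, passed 2-fold.

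In the TGF-beta family 5 of 28 tested genes rose by at least 2-fold and 1 fell, with a median of 0.32. Amhr2, the AMH receptor, had 1712 and 2118 in the testis pools, against 152 and 148 in the embryo pools (3.75, adjusted p = 4.6e-06). Its ligand Amh is given above, and the other probe sets of Amhr2 differed by 2.12 and 3.65. Inha, the inhibin subunit, had 761 and 865 in the testis and 205 and 175 in the embryo pools (2.18). Tgfbr3, a co-receptor for inhibin and TGF-beta, rose by 1.31, while its other probe set differed by -0.0011. Smad7, an inhibitory Smad, rose by 1.20. Id4, a BMP target of the nervous system and of spermatogonia, fell by 1.56, with 980.2 and 833 in the testis pools, against 2587 and 3084 in the embryo pools. Bmp4 (0.58), Id2 (0.59) and Lefty1 (0.57) were not called.

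Genes of the ovarian program had no common direction. Foxl2, the factor of granulosa cells, had 577 and 472 in the testis pools and 628 and 590.1 in the embryo pools and was not called (-0.14, adjusted p = 0.450). Wnt4, a ligand that ovary, kidney and Leydig precursors use, rose by 0.58 (adjusted p = 0.0198), with 1149 and 1021 in the testis and 914 and 643 in the embryo pools, and its other probe set differed by 1.74. The call of Wnt4 at its main probe set was lost without either testis array, without the 129.MOLF-Chr19 embryo array and after quantile normalization. Rspo1, the R-spondin that acts with Wnt4, rose by 1.03, with 296 and 301 in the testis and 147 and 164 in the embryo pools, and lost its call without the 129.MOLF-Chr19 testis array. Of the homeobox factors Irx3 and Irx5, which ovary, limb and nervous system use, Irx3 fell by 1.97 and Irx5 was at least 3.20-fold lower. Irx3 had 143 and 172 in the testis pools, against 530.3 and 793 in the embryo pools. Of the 14 tested members 1 rose and 2 fell by at least 2-fold, and the median was -0.13.

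Endothelial genes rose in part. Of 14 tested members 3 rose by at least 2-fold and 0 fell, with a median of 0.34. Sox17, an arterial factor, had 416 and 441 in the testis pools, against 124 and 134 in the embryo pools (1.81, adjusted p = 5.7e-04), and its other probe set differed by 0.50. Kdr, the VEGF receptor, had 1926 and 1536 in the testis and 735 and 795 in the embryo pools (1.25). Emcn, a sialomucin of capillaries and veins, rose by 1.02 and lost its call without the 129.MOLF-Chr19 testis array. Esam (0.24), Flt4 (-0.29) and Flt1 (0.14) were not called. The macrophage list had 0 of 12 tested members past 2-fold in either direction, and Csf1r, the receptor that macrophages need, had 1729 and 1530.2 in the testis pools and 2505 and 1755 in the embryo pools (-0.28, adjusted p = 0.218).

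Red cell genes divided by globin and precursor. The embryonic globins of primitive red cells were near level. Hbb-y had 11158 and 11993 in the testis pools, against 14139 and 13946 in the embryo pools (-0.20, adjusted p = 0.261). Hba-x (-0.22) and Hbb-bh1 (-0.33) were not called either, although Hbb-bh1 passed as lower with the values as deposited and after quantile normalization. Genes of red cell precursors, which the fetal liver makes, were lower, 5 of 12 tested members by at least 2-fold. Klf1, the factor that switches on adult globin, had 197 and 176 in the testis pools, against 1041 and 1039.5 in the embryo pools (log2 difference -2.40, adjusted p = 1.6e-05). Slc4a1, the red cell anion exchanger, had 367 and 449 in the testis and 2744 and 2962 in the embryo pools (-2.73), and its other probe sets differed by -0.86 and -3.02. Rhag was at least 4.45-fold lower, Ermap fell by 2.07 and Alas2, the first enzyme of red cell haem synthesis, fell by 1.63. The testis pools held intensities of at least 3633 for each of the 3 embryonic globins. The part of blood in the other differences was not tested.

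Genes of the mesonephros, the embryonic kidney that borders the gonad, gave no common direction. Of 15 tested members 4 rose and 1 fell by at least 2-fold, and the median was -0.0047. Wt1 and Emx2, also gonadal, were 2 of the 4. Cdh16, a cadherin of kidney tubules, rose by 1.21, with 522 and 456 in the testis pools, against 250.3 and 199 in the embryo pools (adjusted p = 5.0e-04). Gdnf, the Sertoli and kidney growth factor, rose by 1.14 and lost its call without the 129.MOLF-Chr19 testis array. Osr1, a factor of the intermediate mesoderm, fell by 1.09, with 233 and 224 in the testis and 481 and 555 in the embryo pools. Foxc1 (-0.27) and Pax8 (-0.22), factors of the kidney mesenchyme and ducts, were not called.

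Hox genes, which pattern the body along its axis, split within the Hoxd cluster. Hoxd9, Hoxc8 and Hoxd10 rose by at least 2-fold, 3 of 21 tested genes. Hoxd9 had 1261 and 1597 in the testis pools, against 314 and 301 in the embryo pools (2.29, adjusted p = 6.3e-05). Hoxc8 had 1331 and 1339 in the testis and 362 and 363 in the embryo pools (1.97), and Hoxd10 rose by 1.41. Hoxd13, the distal limb and genital gene at the end of the same cluster, fell by 1.36, with 124 and 106 in the testis pools, against 327 and 299 in the embryo pools. The whole Hox list had a median of 0.07.

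Of 15 tested epithelial genes 2 rose and 2 fell by at least 2-fold and 9 were not called, and none rose without the 129/Sv testis array. Krt18, a keratin of simple epithelia and of Sertoli precursors, rose by 1.37, with 869 and 1002 in the testis pools, against 368 and 399.9 in the embryo pools (adjusted p = 0.00397), a call lost without the 129/Sv testis array. Its partner Krt8 had 658 and 781 in the testis and 470.0 and 427 in the embryo pools and was not called (0.76, adjusted p = 0.0658). Cdh1 (E-cadherin), which germ cells and epithelia share, rose by 1.17 and lost its call without either testis array or the 129.MOLF-Chr19 embryo array. The stratified keratins Krt15 and Krt14 fell by 1.11 and 1.01, and Krt14 lost its call without the 129.MOLF-Chr19 testis array. Krt1 (-0.36) and Krt10 (0.21), also stratified and the second chosen after its values were seen, were not called. Krt15 had 209 and 272 in the testis pools, against 560.0 and 532 in the embryo pools.

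Genes in 7 lists of organs that lie elsewhere in the embryo, pooled with results known, were mostly lower in the testis. The epithelial list and the list of gut, lung and pancreas were left out of this pool. At an adjusted p under 0.05 the first had 3 of 15 tested members higher and 3 lower. The second had 2 of 5 higher and 0 lower. Of 141 measured genes in the organ lists 115 were tested, and of 130 in the gonadal lists below 111. A gene at the floor on both arrays of 1 tissue was tested only through other arrays, so the filter bears on the shares that follow. Of the 115 tested genes in the liver, muscle, neural, neural crest, cartilage, eye and erythroid lists, 54 were lower in the testis by at least 2-fold, with a median difference of -0.87, and 53 to 57 when 1 E13.5 array was left out. By limma 0 of them were higher at an adjusted p under 0.05 and 1 at an unadjusted p under 0.05, and with the 4 E13.5 arrays alone 1 passed as higher. Of 111 tested genes in the Sertoli, gonad specification, Leydig, germ cell, pluripotency and piRNA lists, 43 were higher by at least 2-fold and 1 lower, with a median of 0.53, and 38 to 42 were higher when 1 E13.5 array was left out. These shares stand beside 3.55% higher and 1.58% lower over all tested genes. The gonadal lists were also pooled with results known, and the interstitial and meiosis lists were among those left out. At an adjusted p under 0.05 the interstitial list had 7 of 19 tested members higher and 4 lower, with a median of 0.05. The meiosis list had 2 of 11 higher and 1 lower, with a median of 0.02.

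Liver genes fell, with 15 of 17 tested members lower by at least 2-fold and a median of -1.91. Afp had 25.6 and 26.02, at the floor, in the testis pools, against 9220.2 and 8004 in the embryo pools, at least 71.5-fold lower (adjusted p = 7.7e-07), and its 3 other probe sets differed by -5.96 to -5.54. Alb had 185 and 140.1 in the testis and 6413 and 5499 in the embryo pools (-5.12). Apoa2, an apolipoprotein, had 237 and 223 in the testis and 3560.2 and 2599 in the embryo pools (-3.64). Serpina6 had 114 and 113 in the testis and 2698 and 1969 in the embryo pools. The liver genes that did not pass were Hnf4a (-0.23, adjusted p = 0.234), the hepatocyte nuclear receptor, and Apob (0.22), with 562 and 403 and then 254 and 305 in the testis pools.

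Muscle genes followed, with 12 of 28 tested members lower by at least 2-fold, 0 higher and a median of -0.78. Actc1 had 211 and 293 in the testis pools, against 6273 and 6087 in the embryo pools (-4.55, SE 0.16, adjusted p = 4.0e-06). Mylpf had 116 and 181 in the testis and 2574 and 2191 in the embryo pools. Myl2, the ventricular light chain, was at least 11.4-fold lower, with 88.3 and 86.5, at the floor, in the testis and 1238 and 1501 in the embryo pools. Myl4, the atrial light chain, fell by 3.44 and Myl1, a fast light chain, was at least 9.76-fold lower. Ckm (-0.33), Tnnt3 (-0.32) and Ttn (-0.27) were not called, and 2 other probe sets of Ttn differed by -1.44 and -1.30.

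Neural genes had the lowest median of the lists, -1.99, with 14 of 21 tested members lower by at least 2-fold and 0 higher. Fabp7 had 185 and 248 in the testis pools, against 4389.7 and 4916 in the embryo pools (-4.36). Tubb3 had 79.4 and 118 in the testis and 1599 and 2441 in the embryo pools. Zic1 was at least 14.2-fold lower, with 35.3 and 35.2, at the floor, in the testis pools and 1534 and 1902 in the embryo pools. Its other probe set differed by -1.23, and that of Ncan, given above, by -2.47. Stmn2, a regulator of growing axons, fell by 3.45, and Nefm, a neurofilament, by 3.44. Neurod1 (-0.38), Dcx (-0.23) and Neurog1 (-0.21) did not pass, although 2 other probe sets of Dcx differed by -2.75 and -2.39. Of the neural crest list 2 of 13 tested members fell by at least 2-fold, Fabp7 and the endothelin receptor Ednrb (-1.11). The call of Ednrb was lost without either testis array, and the gene's other probe sets differed by -0.51 and -0.34. Sox10, the crest and glial factor, had 664 and 555 in the testis and 970.2 and 791 in the embryo pools (-0.45), a call that any 1 E13.5 array ended.

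Cartilage genes fell in 5 of 17 tested members by at least 2-fold. Col2a1, the collagen of cartilage, had 421 and 404 in the testis pools, against 3734 and 4664 in the embryo pools (log2 difference -3.26, adjusted p = 6.9e-06). Matn4, a matrilin, fell by 1.96, Cnmd, chondromodulin, was at least 3.87-fold lower, and Sox6, a partner of Sox9 in cartilage, fell by 1.46. Twist1, a mesenchymal factor, fell by 1.32. Of the eye list 2 of 9 tested members fell by at least 2-fold, the crystallins Cryba1 (-2.35) and Cryaa (at least 4.27-fold). Cryaa had 99.6 and 101, at the floor, in the testis and 528 and 499 in the embryo pools. Among 5 tested genes of gut, lung and pancreas, Gata6, which the gonad expresses too, rose by 2.20, with 1298 and 1306 in the testis pools, against 259 and 349 in the embryo pools, a call lost without the 129.MOLF-Chr19 testis array.

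**Figure D4:**
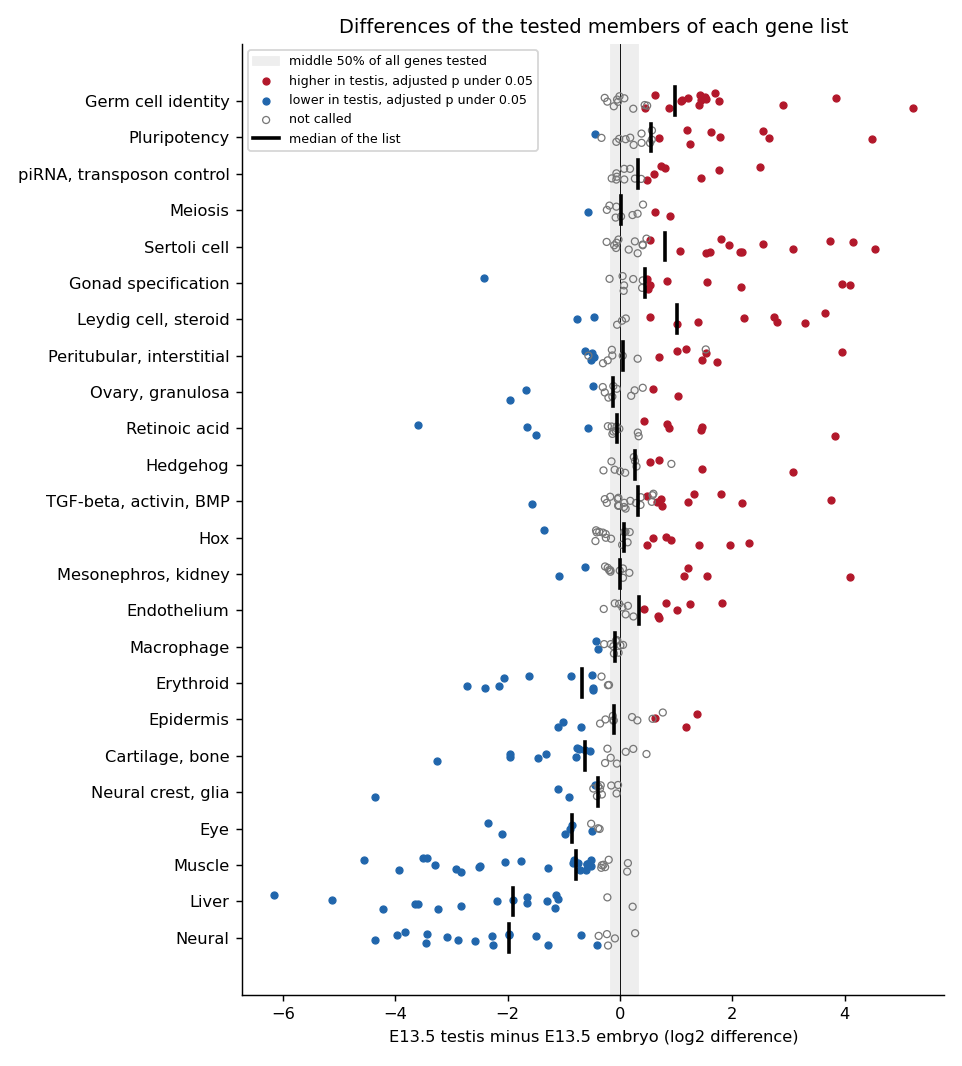
Each point is a tested member of a gene list at its testis minus embryo log2 difference, filled where the limma adjusted p was under 0.05, and the black bar is the list's median. The grey band holds the middle 50% of all genes tested, from -0.16 to 0.32. The germ cell, Sertoli and Leydig lists have medians of 0.98, 0.80 and 1.01, and the liver and neural lists medians of -1.91 and -1.99.

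Imprinted genes, whose marks germ cells erase before this age, were read in whole testis. Of 22 tested members 1 rose and 1 fell by at least 2-fold, against 3.55% and 1.58% over all tested genes. The median was 0.07. Nnat, a gene of brain and endocrine cells, fell by 1.63, with 1940.3 and 2655 in the testis pools, against 7484 and 7405 in the embryo pools (adjusted p = 3.8e-04), and Dcn, given above, was the member that rose. Phlda2, a growth regulator of placenta, had 176 and 169 in the testis and 281 and 233 in the embryo pools and was not called (-0.49, adjusted p = 0.0693). Among the regulators of DNA methylation Hells, a chromatin remodeller, had 1152 and 1122 in the testis pools, against 294 and 344 in the embryo pools (1.92, adjusted p = 1.4e-04), while its other probe set differed by 0.27. Dnmt3a, the de novo methyltransferase, rose by 0.91 and lost its call without the 129.MOLF-Chr19 testis array, and its 4 other probe sets differed by 0.10 to 0.45. Dnmt1 (0.35), the maintenance methyltransferase, was not called.

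Proliferation genes had a median of 0.11, against 0.03 over all tested genes, of which 3.55% rose by at least 2-fold. 1 of 25 tested cell cycle genes, the mitotic kinase Bub1, rose by at least 2-fold, with 866 and 969 in the testis pools, against 375 and 553 in the embryo pools (1.09), and it fell short of 2-fold after quantile normalization. Ccnd1, cyclin D1, fell by 0.48, a call that any 1 E13.5 array ended. Of the X-linked Rhox genes Rhox5, a homeobox gene of Sertoli cells, had 836 and 1026 in the testis and 261 and 281 in the embryo pools (1.86, adjusted p = 7.2e-05), while Rhox9 (0.08) and Rhox13 (0.03) were not called. On the Y chromosome Eif2s3y, a translation factor that spermatogonia need, rose by 1.06, with 321 and 375 in the testis pools, against 172 and 182 in the embryo pools, and lost its call with the mean of its probe sets, and Uty (0.15) was not called. Genes that respond to handling were partly higher. Egr1, an immediate early gene, rose by 1.03, and Hspa1b, an inducible heat shock protein, by 1.02, with 823 and 708 in the testis and 354 and 447 in the embryo pools. Both fell short of 2-fold with the values as deposited and after quantile normalization, and Hspa1b lost its call without the 129/Sv testis array. The part of tissue handling in the other differences was not tested. None of the 9 tested reference genes passed 2-fold, and Actb had 17498 and 16189 in the testis pools and 16876 and 17742 in the embryo pools.

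Other probe sets of a gene were read, here and above, where they lay above the array median on at least 2 of the 6 arrays. Of the 463 genes higher by at least 2-fold, 223 had 384 other probe sets, of which 88.3% were also higher in the testis and 36.7% by at least 2-fold, with a median of 0.77. Over all tested genes 63.2% of 8338 other probe sets were higher in the testis and 4.26% by at least 2-fold, with a median of 0.12. Of the 206 lower genes 53 had 83 other probe sets, of which 95.2% were lower and 60.2% by at least 2-fold, with a median of -1.32, against 36.8% and 1.74% over all tested genes. By chromosome the share of tested genes higher by at least 2-fold ran from 1.84% on chromosome 11 to 6.16% on chromosome 10 among the autosomes and was 5.15% on the X chromosome, against 3.55% over all. Chromosome 19, which comes from MOLF in both 129.MOLF-Chr19 pools, had 3.10% higher and 1.33% lower.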

How the data were processed

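RNA of 6 pools was hybridised to 1 Affymetrix mouse array each. The authors deposited 1 intensity per probe set and array on a linear scale, and how probe signals were summarised is not given in the sources used here. Of 45101 probe sets, 64 controls were left out, 34945 had 1 gene symbol in the platform annotation, 932 had several and 9224 had none. Intensities were raised to each array's 25th percentile, log2 transformed and centred on the array median. Each of 18193 genes was represented by the single-symbol probe set of highest mean, and 13027 above the array median on at least 2 of the 6 arrays were tested. limma 3.58.1 (R 4.3.3) fitted all 6 arrays with tissue and strain, with a trended prior and Benjamini-Hochberg adjustment at 0.05, and the contrast was E13.5 testis minus E13.5 embryo. The strains pair the arrays across tissues per the labels, since each strain gave 1 pool per tissue. A group at the floor on both arrays gives a bound, written as at least a fold. Other work used Python 3.11.15, numpy 2.4.6, pandas 2.3.3 and matplotlib 3.10.9, and the fit was tested on simulated data.

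The members and gene lists were chosen with earlier results of these data known. Named genes were the 10 largest changes in each direction, up to 5 called members in each direction and 3 uncalled members of each list, and a set of key genes, and any gene named outside it is marked in the text. Array intensities carry no counts, so the number of arrays limits the precision. Alternatives covered the scaling, floor, filter, probe set choice, block, prior and each array left out.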

Additional observations from a re-analysis of the deposited data

Results flagged for a closer look

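For 12 named genes the testis minus embryo difference had opposite signs in 129/Sv and 129.MOLF-Chr19, with 1 array per strain and tissue, so the difference between strains was not tested. Each value that follows is the difference in 129/Sv minus that in 129.MOLF-Chr19 on the log2 scale. It was -0.54 for Apob, an apolipoprotein, 0.59 for Atf3, a stress response factor, -0.52 for C1qa, a complement gene of macrophages, -0.32 for Cyb5a, the cytochrome of the steroid list, and -0.59 for Gusb, a lysosomal enzyme. It was -0.19 for Lhx9, the gonadal homeobox factor, 0.25 for Rhox13 and -0.42 for Rhox9, both X-linked homeobox genes, and -0.36 for Tbp, a general transcription factor. It was -0.75 for Tm7sf2, an enzyme of sterol synthesis, -0.46 for Tspo, the mitochondrial cholesterol-binding protein, and 0.17 for Xist, the RNA of the inactive X chromosome. None of the 12 genes passed the test of testis against embryo over both strains.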

How the results depend on the processing

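Scaling, probe set choice and single arrays moved the counts of calls at an adjusted p under 0.05, of 2237 genes higher and 696 lower in the testis. Quantile normalization gave 1508 and 1192, and testing only genes above the 75th percentile gave 1790 and 417. Without the strain as a replicate block the counts were 1706 and 548. Leaving out 1 array at a time gave 512 to 2805 higher and 238 to 992 lower, and at 2-fold or more 394 to 539 higher and 201 to 239 lower, against 463 and 206. Averaging each gene's probe sets gave 284 higher and 183 lower at 2-fold or more, and the stricter filter 385 and 127. Gramd1b turned from a log2 difference of -0.77 to 0.0918 with the mean of its probe sets, since its other probe set was higher in the testis. Over 247 named genes and 4117 gene and alternative pairs, 3743 kept direction and side of the threshold, 194 lost the call, 147 gained it, 32 changed sign with no call in either fit, and 1 called gene, Gramd1b, reversed. With the 4 E13.5 arrays alone no named gene lost its call, and Nr2f2, Hhip, Bmp4, Lefty1 and Krt8 were among those that gained one. Precision is limited by 1 array of pooled RNA per strain and tissue.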

Other observations

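The gene families that follow were chosen after their values were seen, so their counts are a description with no test of the family. Over all tested genes 3.55% rose and 1.58% fell by at least 2-fold. Of 20 tested glutathione transferases, enzymes that conjugate glutathione to reactive compounds, 7 rose by at least 2-fold in the testis and 1 fell, Mgst3 (-0.80, a call lost without 2 of the E13.5 arrays), with a median of 0.01. Gstm2 had 4352 and 4973 in the testis pools, against 506 and 609 in the embryo pools (log2 difference 3.15, limma adjusted p = 6.3e-06). Gstm1 rose by 2.60, Gstm6 by 2.21, Mgst1 by 2.16, Gstm7 by 1.80, and Gsta4 by 1.20 on the log2 scale, and Gsta3, at the floor in both embryo pools, was at least 2.02-fold higher. The Gstm genes are alike in sequence, so some of their probe sets may share signal. Not all Gstm genes rose, since Gstm3 (0.09), Gstm5 (0.009) and Gstm4 (0.002) were not called. A further set of 6 genes held the TAM receptors, their ligands and Mfge8, a bridging protein that is not a TAM ligand. Their proteins let Sertoli cells and macrophages take up dying cells. Of the 6 genes 5 rose, 4 of them by at least 2-fold. Tyro3 had 728 and 750.2 in the testis and 187 and 208 in the embryo pools (1.99). Axl rose by 1.85, the ligand Gas6 by 1.79 and Mfge8 by 1.97. Mertk rose by 0.79, a call lost without 2 of the E13.5 arrays, and Pros1 was not called (0.12).

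Single genes in no list also stood out and were chosen after their values were seen. Gucy1a1, a subunit of the nitric oxide receptor, had 2121 and 1952 in the testis pools, against 175 and 191 in the embryo pools (3.56, adjusted p = 4.0e-06). Rpl39l, a ribosomal protein paralog of the testis, lay at the floor in both embryo pools and was at least 10.9-fold higher, and Rps4l rose by 1.75, while 2 of the 43 tested ribosomal protein genes passed 2-fold. Cyp1b1, a cytochrome that oxidises steroids and retinoids, rose by 2.86, and Itga8, an integrin of kidney and gonad mesenchyme, by 2.54. Uba1y, a ubiquitin-activating enzyme of the Y chromosome, was at least 4.40-fold higher, with both embryo pools at the floor. Among the falls, Hemgn, a gene of red cell precursors, had 74.3 and 72.4 at the floor in the testis pools and 1292 and 1069.6 in the embryo pools, at least 9.79-fold lower, and of 8 tested haem synthesis genes 3 fell by at least 2-fold, 3 fell by less and 1 rose by less than 2-fold. Crmp1, Dpysl3 and Dpysl5, proteins of growing axons, fell by 2.74, 2.28 and 1.93, and 3 of 6 Iroquois homeobox genes, Irx2, Irx3 and Irx5, were lower by at least 2-fold.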
